A study of Mus musculus with 12 samples.

Results

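The interferon receptor subunits are the membrane chains through which a cell reads type I, type II and type III interferon, and 6 mouse genes were taken as members by symbol: *Ifnar1*, *Ifnar2*, *Ifngr1*, *Ifngr2*, *Ifnlr1* and *Il10rb*. All 6 were found among the 35521 genes with an annotated transcript, and 5 of them were among the 12555 genes with enough counts to be tested. RNA-Seq was done on 4T1 cells, a mammary carcinoma line from BALB/c mice, in 3 groups of 4 libraries. In the group 4T1_MDSC_T, parental 4T1 cells were cocultured for 48 hours with Gr1+ cells from tumors of 4T1 tumor–bearing BALB/c mice (Tu-Gr1+CD11b+–primed 4T1). In the group 4T1_MDSC_S the Gr1+ cells came from the spleen of such mice (Spl-Gr1+CD11b+–primed 4T1), and the group 4T1 held parental cells that had no coculture. The Gr1+ cells were isolated on magnetic columns at day 21 after tumor cell injection, per the labels, and were kept apart from the tumor cells by a Transwell membrane with 0.4 μm pores. All groups are the same cell line. The sources used here do not say whether the 4 libraries of a group came from separate cocultures, so the p-values measure the spread between these libraries, which may be technical.

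Each interferon receptor is built from a high-affinity ligand-binding chain and a partner chain. IFNAR1 and IFNAR2 form the type I receptor, IFNGR1 and IFNGR2 the IFN-γ receptor, and IFNLR1 pairs with IL10RB in the type III receptor, while IL10RB also serves the receptors of IL-10 and IL-22. The chains have no kinase of their own: TYK2, JAK1 and JAK2 are bound to their cytoplasmic tails and phosphorylate STAT proteins, which, with IRF9 after type I interferon, enter the nucleus and start the transcription of interferon-stimulated genes. Type I and II receptors are found on nearly all cells, whereas IFNLR1 is mostly restricted to epithelial cells and some leukocytes.

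Library totals lay between 24566183 and 31637755 estimated reads, with a median of 27277534. Some libraries stood apart within their group. The counts of Spl-Gr1+CD11b+–primed replicate 3 differed from the other 3 by a chi-square per degree of freedom of 31.5 to 39.2, against 3.46 to 7.58 among those. Parental replicate 4 differed from replicates 1 and 2 by 56.1 and 62.2, against 5.88 between these. Parental replicate 3 lay between, at 21.5 and 26.4 from replicates 1 and 2 and 17.1 from replicate 4. Pairs of Tu-Gr1+CD11b+–primed libraries lay between 4.35 and 17.6. Values of the receptor chains without Spl-Gr1+CD11b+–primed replicate 3 or parental replicate 4 are given beside those that change by it. Those of transcripts and other genes are given with all libraries. The 8 markers of mammary epithelium that were listed, among them *Epcam*, *Cdh1* and *Krt8*, were all expressed, with a summed level of 2637 to 3928 CPM (counts scaled to the TMM-adjusted library size) in parental, 2369 to 2555 in Spl-Gr1+CD11b+–primed and 1874 to 2292 in Tu-Gr1+CD11b+–primed libraries. Of 18 markers of granulocytes and monocytes, the cells on the other side of the membrane, 2 had enough counts to be tested. The defining markers *Ptprc*, *Itgam*, *Ly6g* and *Csf3r* had at most 10 counts in any library. The fifth, *Cxcr2*, had 41 to 96 counts and did not pass the test in any comparison. The summed level of these 18 genes was 170 to 202 CPM in parental, 235 to 244 in Spl-Gr1+CD11b+–primed and 219 to 244 in Tu-Gr1+CD11b+–primed libraries. Nearly all of it was *Itgb2*, the β2 integrin chain, at 185 ± 13.2, 236 ± 4.00 and 230 ± 10.7 CPM (SD, n = 4), and it rose over parental cells in Tu-Gr1+CD11b+–primed (log2 0.31, adjusted p = 0.000330) and Spl-Gr1+CD11b+–primed cells (0.35, adjusted p = 0.000247). The monocyte marker *Ly6c2* had 8 to 16 counts in Tu-Gr1+CD11b+–primed, 2 to 6 in Spl-Gr1+CD11b+–primed and 1 to 2 in parental libraries and was not tested. *Itgb2* and *Ly6c2* thus moved with the groups, *Itgb2* being at 185 CPM already in parental cells, which had no coculture. The defining marker *Ptprc* ran the other way, at low counts. Its means were 0.0882, 0.163 and 0.231 CPM in Tu-Gr1+CD11b+–primed, Spl-Gr1+CD11b+–primed and parental libraries. *Csf3r*, at 2 counts or fewer, had the same order as *Ptprc*. The part of the 18 markers in the results on the receptor chains was not tested. In bulk RNA, fewer expressing cells and less RNA per cell cannot be told apart.

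Of the receptor chains, the type I pair and *Il10rb* had higher RNA levels than in parental cells after coculture with Tu-Gr1+CD11b+ cells. After coculture with Spl-Gr1+CD11b+ cells, *Ifnar1* (1.32-fold), *Ifngr1* (1.15-fold) and *Il10rb* (1.12-fold) were higher than in parental cells. The IFN-γ receptor chains differed from parental cells by 1.15-fold or less in both primed groups, and *Ifnlr1* was close to the detection limit everywhere. *Ifnar2* was the chain that differed between the 2 primed groups. By edgeR's quasi-likelihood test over all tested genes, with an adjusted p under 0.05 as the threshold, 3 of the 5 tested chains were higher in Tu-Gr1+CD11b+–primed than in parental cells, where 31.2% of all tested genes were called higher and 28.0% lower. Likewise 3 of 5 were higher in Spl-Gr1+CD11b+–primed than in parental cells, with a background of 25.7% higher and 22.5% lower. In the direct comparison of the primed groups 1 of 5 was higher after tumor-derived cells, against a background of 4.66% higher and 2.97% lower. No chain was called lower in any of these comparisons. Both comparisons with parental cells share the same 4 parental libraries. Where the libraries of a group are said below to lie above, below or apart from others, the share of all tested genes with such a separation was not counted. Such statements describe the values of a chain and do not set it apart from other genes.

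**Figure D1:**
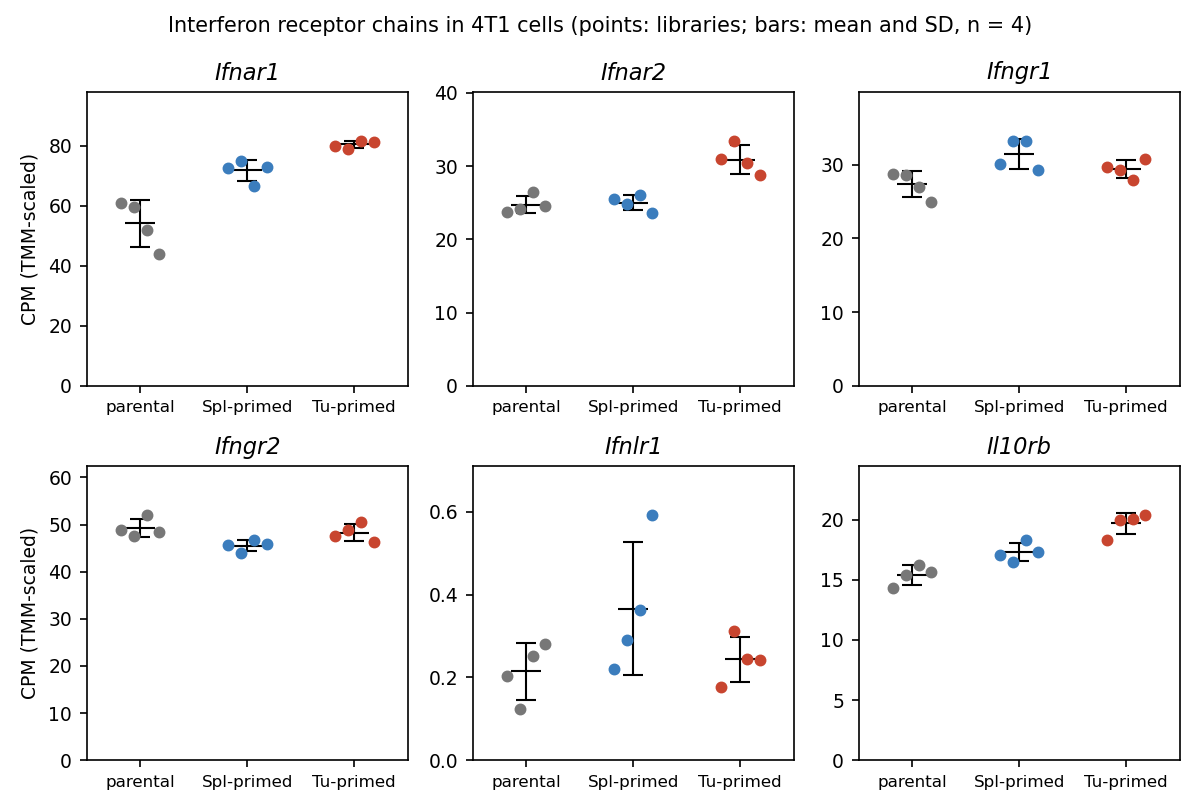
CPM (TMM-scaled, linear axes that start at 0) of the 6 receptor chains in each library, as points, with the mean and SD of 4 libraries; "Tu-primed" and "Spl-primed" are 4T1 cells cocultured with Gr1+ cells of tumor or spleen. The 4 Tu-primed points lie above all others for Ifnar1, Ifnar2 and Il10rb, overlap with other groups for Ifngr1 and Ifngr2, and Ifnlr1 stays under 0.6 CPM. For Il10rb the separation is 18.346 CPM in Tu-primed replicate 1 against 18.339 in Spl-primed replicate 3. The share of all tested genes with such a separation was not counted.

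*Ifnar1* (ENSMUSG00000022967, GRCm38 chromosome 16, 91485238 to 91507441, plus strand) encodes the signal-transducing chain of the type I receptor, to which TYK2 is bound. Its level was 80.0, 78.8, 81.5 and 81.1 CPM in the 4 Tu-Gr1+CD11b+–primed libraries. It was 72.7, 74.8, 66.6 and 72.9 CPM in Spl-Gr1+CD11b+–primed and in parental libraries 61.0, 59.6, 52.0 and 44.0 CPM. The 3 groups did not overlap, and the parental libraries were the most spread, with replicate 4 the lowest. Relative to parental cells, *Ifnar1* rose 1.48-fold after tumor-derived Gr1+ cells (log2 fold change 0.57, SE 0.08, adjusted p = 5.79e-05). After spleen-derived cells it rose 1.32-fold (log2 0.41, SE 0.08, adjusted p = 0.00132). Between the primed groups the difference of 0.16 (SE 0.08, adjusted p = 0.260) did not pass the test, although every Tu-Gr1+CD11b+–primed library was above every Spl-Gr1+CD11b+–primed one. In a fit of those 8 libraries alone it did (log2 0.18, adjusted p = 0.0491), with adjusted p-values of 0.0491 to 0.441 over the 21 other settings tried. With offsets for transcript length it was 0.26 (adjusted p = 0.278). Without parental replicate 4, *Ifnar1* still rose in both primed groups (0.48, adjusted p = 4.61e-05, and 0.32, adjusted p = 0.00159).

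*Ifnar2* (ENSMUSG00000022971, chromosome 16, 91372783 to 91405589, plus strand) encodes the chain that binds type I interferon with high affinity and carries the docking sites of the STAT proteins. It measured 30.9, 33.4, 30.5 and 28.8 CPM in Tu-Gr1+CD11b+–primed libraries. The Spl-Gr1+CD11b+–primed libraries had 25.5, 24.9, 26.1 and 23.6 CPM, and the parental libraries 23.8, 24.2, 26.5 and 24.5 CPM. All 4 Tu-Gr1+CD11b+–primed libraries were above the other 8, while the Spl-Gr1+CD11b+–primed and parental libraries overlapped. *Ifnar2* rose 1.25-fold over parental cells (log2 0.32, SE 0.06, adjusted p = 0.000438) and 1.24-fold over Spl-Gr1+CD11b+–primed cells (log2 0.31, SE 0.06, adjusted p = 0.00585). The difference between Spl-Gr1+CD11b+–primed and parental cells was 0.01 (SE 0.06, adjusted p = 0.857), with a 95% interval of -0.10 to 0.13, and -0.023 without Spl-Gr1+CD11b+–primed replicate 3. When the change of effective transcript length between libraries was taken into account, the difference from parental cells was 0.21 and no longer passed the test (adjusted p = 0.0734, the highest over the 21 settings, the lowest being 4.52e-05).

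*Il10rb* (ENSMUSG00000022969, chromosome 16, 91406164 to 91425834, plus strand) encodes the chain that the type III interferon, IL-10 and IL-22 receptors share. It measured 18.3, 20.0, 20.0 and 20.4 CPM in Tu-Gr1+CD11b+–primed, 17.1, 16.5, 18.3 and 17.3 CPM in Spl-Gr1+CD11b+–primed and 14.3, 15.4, 16.3 and 15.7 CPM in parental libraries. The primed groups lay above the parental libraries without overlap, and the lowest Tu-Gr1+CD11b+–primed library was level with the highest Spl-Gr1+CD11b+–primed one to 3 digits. The rise over parental cells was 1.28-fold after tumor-derived cells (log2 0.35, SE 0.06, adjusted p = 0.000252). After spleen-derived cells it was 1.12-fold (log2 0.17, SE 0.06, adjusted p = 0.0373), a call that was lost in 10 of the 21 other settings, over all of which the adjusted p lay between 0.0288 and 0.132. Without Spl-Gr1+CD11b+–primed replicate 3 it was 0.12 (adjusted p = 0.132). Between the primed groups the difference was 0.19 (SE 0.06, adjusted p = 0.0817), which passed without that replicate (0.23, adjusted p = 0.0495) and was 0.10 with offsets for transcript length (adjusted p = 0.520).

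*Ifngr1* (ENSMUSG00000020009, chromosome 10, 19591949 to 19610229, plus strand) encodes the chain that binds IFN-γ and brings JAK1. It measured 29.7, 29.3, 27.9 and 30.9 CPM in Tu-Gr1+CD11b+–primed, 30.2, 33.2, 33.2 and 29.3 CPM in Spl-Gr1+CD11b+–primed and 28.7, 28.6, 27.0 and 25.0 CPM in parental libraries. Here the Spl-Gr1+CD11b+–primed libraries had the highest mean and did not overlap with the parental ones, whereas the Tu-Gr1+CD11b+–primed libraries overlapped with both. *Ifngr1* rose 1.15-fold in Spl-Gr1+CD11b+–primed over parental cells (log2 0.20, SE 0.06, adjusted p = 0.0177). Without Spl-Gr1+CD11b+–primed replicate 2, replicate 3 or parental replicate 4 this did not pass the test (adjusted p = 0.0590, 0.0535 and 0.0535, against 0.0133 to 0.0590 over the 21 settings). The differences of Tu-Gr1+CD11b+–primed cells from parental (0.11, adjusted p = 0.167) and from Spl-Gr1+CD11b+–primed cells (-0.10, adjusted p = 0.405) did not pass. They were 0.065 without parental replicate 4 (adjusted p = 0.406) and -0.051 without Spl-Gr1+CD11b+–primed replicate 3 (adjusted p = 0.731), and with offsets for transcript length 0.17 and -0.056.

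*Ifngr2* (ENSMUSG00000022965, chromosome 16, 91547072 to 91565623, plus strand) encodes the partner chain of the IFN-γ receptor, which brings JAK2. It measured 47.5, 48.9, 50.5 and 46.3 CPM in Tu-Gr1+CD11b+–primed, 45.7, 44.0, 46.7 and 45.8 CPM in Spl-Gr1+CD11b+–primed and 48.8, 47.6, 52.0 and 48.5 CPM in parental libraries. The Spl-Gr1+CD11b+–primed libraries were below all parental libraries, and the Tu-Gr1+CD11b+–primed libraries overlapped with both groups. No difference passed the test: -0.03 between Tu-Gr1+CD11b+–primed and parental cells (95% interval -0.12 to 0.07, adjusted p = 0.637), -0.11 between Spl-Gr1+CD11b+–primed and parental cells (95% interval -0.20 to -0.02, adjusted p = 0.0668) and 0.08 between the primed groups (adjusted p = 0.323). The difference of -0.11 did pass with RLE normalization (-0.14, adjusted p = 0.0297), with DESeq2 (-0.14, adjusted p = 0.0249) and without Spl-Gr1+CD11b+–primed replicate 3 (-0.14, adjusted p = 0.0282), and over the 21 settings the adjusted p lay between 0.0249 and 0.347.

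*Ifnlr1* (ENSMUSG00000062157, chromosome 4, 135686287 to 135708181, plus strand) encodes the ligand-binding chain of the type III receptor. It had 5, 8, 7 and 7 counts in Tu-Gr1+CD11b+–primed, 7, 8, 10 and 17 counts in Spl-Gr1+CD11b+–primed and 6, 3, 6 and 7 counts in parental libraries, and was left out of the test for its low level. A count of 0 allows up to 3 counts, a level that 1 parental library did not exceed. In a fit without a filter on low counts the 3 differences lay between -0.56 and 0.73 on the log2 scale, and none passed (adjusted p between 0.252 and 0.830). With standard errors of 0.44 to 0.47 on the log2 scale, differences of this size were not detectable at this depth.

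**Figure D2:**
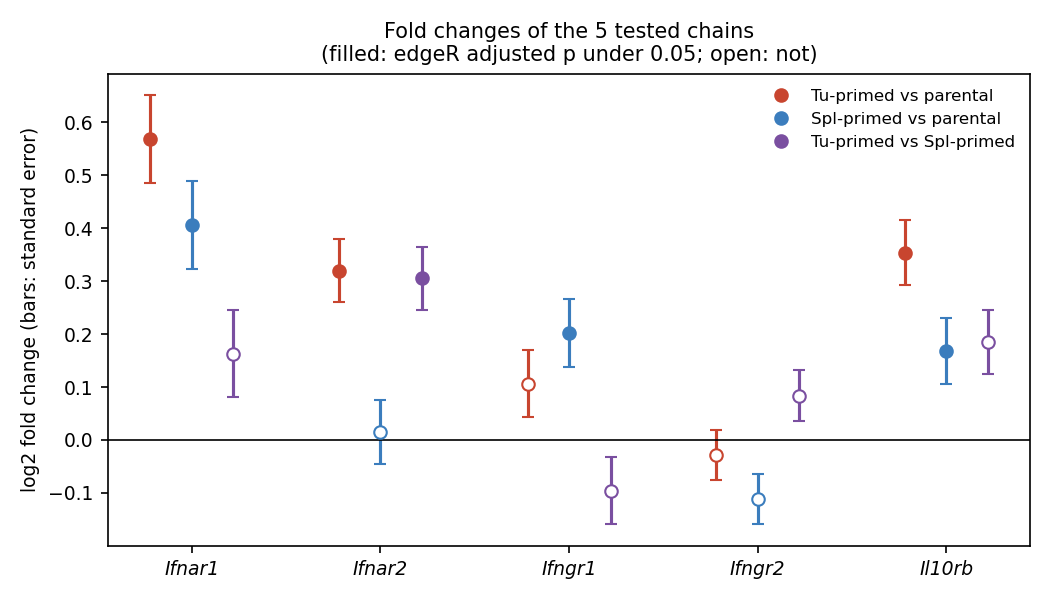
Log2 fold change (linear axis, no unit) of the 5 tested chains in the 3 comparisons, with bars of 1 standard error; filled points passed edgeR's test at an adjusted p under 0.05 and open points did not. Ifnar1 has the highest values over parental cells (0.57 and 0.41), Ifnar2 rises in both comparisons of Tu-primed cells and lies at 0.01 in Spl-primed cells, and Ifngr2 lies between -0.11 and 0.08.

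Levels of different chains were set side by side in TPM, the deposited abundance per transcript length. *Ifngr2* was the most abundant chain in all 12 libraries, *Il10rb* the fifth and *Ifnlr1* the last. Their mean levels in Tu-Gr1+CD11b+–primed, Spl-Gr1+CD11b+–primed and parental cells were 42.0 ± 3.90, 37.3 ± 2.17 and 31.6 ± 4.05 TPM for *Ifngr2*. They were 17.1 ± 1.27, 15.2 ± 1.23 and 9.95 ± 1.08 TPM for *Il10rb* and 0.0848 ± 0.0184, 0.123 ± 0.0579 and 0.0531 ± 0.0127 TPM for *Ifnlr1* (SD, n = 4). The 3 chains between them changed places in this measure, which depends on the estimated split of reads among transcripts of different length. For *Ifnar2* these include *Ifnar2-203*, of 1099 bases, beside *Ifnar2-201*, of 3047 bases. In Tu-Gr1+CD11b+–primed cells *Ifnar1* (35.5 ± 3.64 TPM) was above *Ifnar2* (30.7 ± 3.44 TPM) in 3 of 4 libraries, and *Ifngr1* (23.6 ± 0.680 TPM) was below both in all 4. In parental cells *Ifnar2* (19.1 ± 1.47 TPM) was above *Ifnar1* (16.2 ± 4.01 TPM) in 4 of 4 libraries, though their ranges overlapped, as did those of *Ifnar1* and *Ifngr1* (15.3 ± 2.85 TPM). In Spl-Gr1+CD11b+–primed cells the ranges of *Ifnar1* (28.4 ± 3.86 TPM), *Ifngr1* (23.4 ± 1.77 TPM) and *Ifnar2* (22.8 ± 0.317 TPM) overlapped for each neighbouring pair. The other neighbours in the order had ranges that did not overlap.

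Each chain but *Ifnlr1* was a gene of middle rank. In parental cells 71.3% of the tested genes had a lower mean TPM than *Ifngr2*, 59.3% a lower one than *Ifnar2*, 55.2% than *Ifnar1*, 53.8% than *Ifngr1* and 43.6% than *Il10rb*. In Tu-Gr1+CD11b+–primed cells these shares were 70.6%, 62.3%, 66.2%, 55.4% and 46.9%, so the largest gain in rank among the 5 was that of *Ifnar1*. TPM values were compared only within libraries, since TPM shifted between the groups for tested genes at large. The median over genes of the log2 ratio of mean TPM to parental cells was 0.49 in Tu-Gr1+CD11b+–primed and 0.42 in Spl-Gr1+CD11b+–primed cells. For *Ifnar1* over *Ifnar2*, the mean TPM ratio was 1.17 ± 0.225, 1.24 ± 0.164 and 0.840 ± 0.168 in Tu-Gr1+CD11b+–primed, Spl-Gr1+CD11b+–primed and parental cells (SD, n = 4). The ratio was higher in all 4 Spl-Gr1+CD11b+–primed libraries than in any parental one (log2 difference 0.58, exact two-sided permutation p = 0.0286, the smallest that 4 against 4 libraries allow, and 0.114 after adjustment over the 6 ratio comparisons). For *Ifngr1* over *Ifngr2* the ratios were 0.564 ± 0.0422, 0.629 ± 0.0690 and 0.482 ± 0.0501. None of the 6 comparisons passed after adjustment, with adjusted exact permutation p-values between 0.114 and 0.629. In CPM, which is not divided by length, *Ifnar1* over *Ifnar2* was 2.61 ± 0.194, 2.88 ± 0.234 and 2.19 ± 0.376 in the same order of groups. The log2 difference in CPM between Spl-Gr1+CD11b+–primed and parental cells was 0.40 (exact permutation p = 0.0571, and 0.171 after adjustment).

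**Figure D3:**
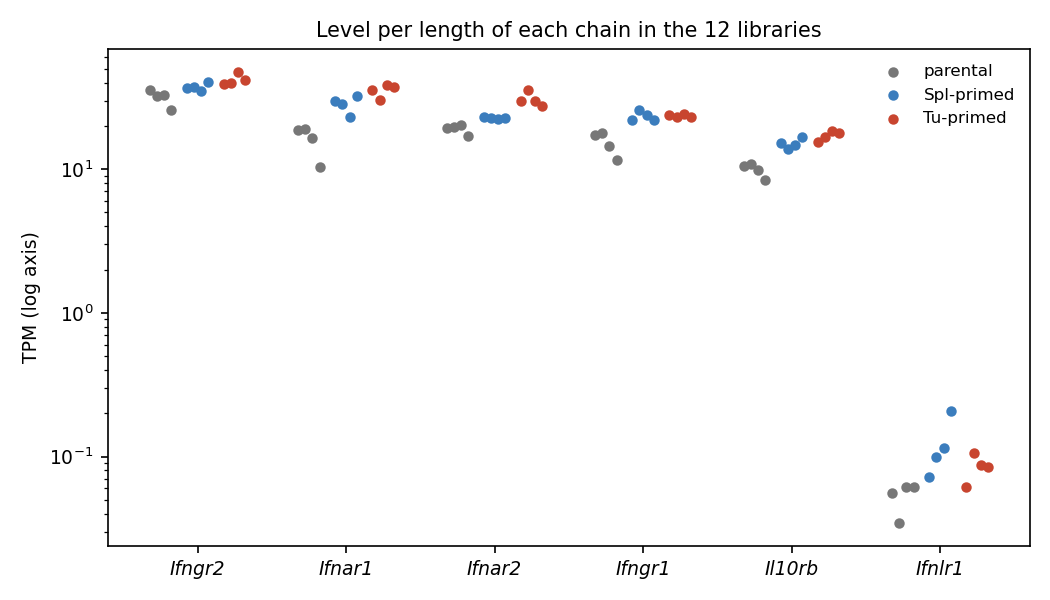
TPM (log axis) of the 6 receptor chains in each of the 12 libraries, 1 point per library. Ifngr2 is the highest chain in every library, Ifnar1, Ifnar2 and Ifngr1 lie close together, and Ifnlr1 lies at 0.0344 to 0.206 TPM, far below the others.

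Reads of the 6 genes were assigned to 28 annotated transcripts, of which 14 had enough counts to be tested. The assignment of a read that matches several forms is an estimate, so these values are less certain than the gene totals. The TMM scaling of the transcripts also differed from that of the genes, and by itself moved log2 values against parental cells by -0.092 in Tu-Gr1+CD11b+–primed and by -0.094 in Spl-Gr1+CD11b+–primed cells, so that a form and its gene are not on the same scale. The fit was therefore repeated with the library sizes of the gene fit, an alternative chosen after seeing the data. In the test over 38164 transcripts, 5 of the 14 were called in Tu-Gr1+CD11b+–primed against parental cells (background 31.3%), 4 in Spl-Gr1+CD11b+–primed against parental cells (26.3%) and 0 between the primed groups (0.566%). With the library sizes of the gene fit, 5, 2 and 0 of the 14 were called in these comparisons, against 30.1%, 24.2% and 0.566% of all transcripts. Between the primed groups, the lowest adjusted p-values were those of *Ifnar2-203*, *Ifnar2-201*, *Il10rb-201* and *Ifnar1-201* (edgeR, adjusted p = 0.227, 0.241, 0.482 and 0.598), and none passed.

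Mouse *Ifnar2* is known to give rise to both a membrane receptor and shorter, soluble forms. *Ifnar2-201*, the longest form with 9 exons and a reading frame of 513 codons, held 52.0% ± 3.21 of the reads of the gene in Tu-Gr1+CD11b+–primed, 49.3% ± 1.69 in Spl-Gr1+CD11b+–primed and 44.8% ± 5.74 in parental libraries. *Ifnar2-203*, with 7 exons and 248 codons, held 39.7% ± 2.43, 37.3% ± 2.00 and 45.4% ± 3.16 (SD, n = 4). *Ifnar2-202*, with 247 codons, held 7.24% ± 2.96, 11.7% ± 2.93 and 6.73% ± 5.33. Estimated counts of *Ifnar2-201* were 444, 487, 448 and 407 in Tu-Gr1+CD11b+–primed, 417, 342, 347 and 323 in Spl-Gr1+CD11b+–primed and 326, 288, 230 and 293 in parental libraries. Those of *Ifnar2-203* were 372, 316, 349 and 326 in Tu-Gr1+CD11b+–primed, 323, 258, 262 and 238 in Spl-Gr1+CD11b+–primed and 312, 246, 293 and 303 in parental libraries. The long form rose over parental cells in Tu-Gr1+CD11b+–primed cells (log2 0.45, SE 0.11, adjusted p = 0.00903), where the short form was at 0.03 (SE 0.11, adjusted p = 0.890). After spleen-derived cells the long form was at 0.06 (adjusted p = 0.736) and the short form fell by 0.37 (log2, SE 0.11, adjusted p = 0.0291), which with the library sizes of the gene fit was -0.27 and did not pass the test (adjusted p = 0.0871). Between the primed groups both forms differed by nearly the same amount, 0.39 and 0.40, and neither passed the test (adjusted p = 0.241 and 0.227). Whether the 2 forms changed unequally was not tested.

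**Figure D4:**
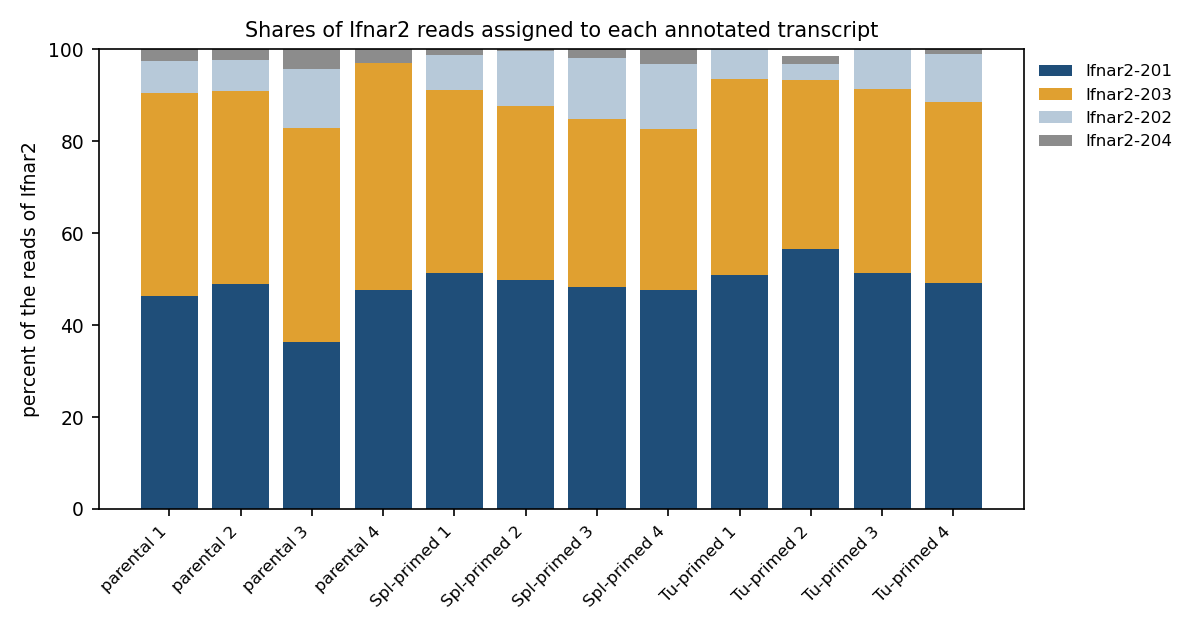
Percent of the reads of Ifnar2 assigned to each of 4 annotated transcripts, as stacked bars for each library (axis from 0 to 100%; the small rest in 1 Tu-primed library belongs to another transcript). Ifnar2-201, the long form, makes up 36.4% of reads in parental replicate 3 and 56.6% in Tu-primed replicate 2, the lowest and highest shares, and Ifnar2-203 is the second form in most libraries.

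*Ifnar1-201*, with 11 exons and 590 codons, held at least 90.6% of the gene's reads in every library and rose over parental cells in both primed groups (log2 0.45, adjusted p = 0.00144, and 0.27, adjusted p = 0.0241). The forms of *Ifnar1* not annotated as protein-coding were retained introns, processed transcripts or targets of nonsense-mediated decay. Together they held 4.69% ± 1.35 of the reads in Tu-Gr1+CD11b+–primed and 4.43% ± 1.71 in Spl-Gr1+CD11b+–primed libraries. In parental libraries they held 1.38% ± 0.738 (SD, n = 4), with a highest value of 2.45% that was below the lowest primed one of 2.75%. This share was looked at after its values were seen, and no test was run on it. The same share over all genes was not counted, so whether the separation is particular to *Ifnar1* is not known. One such form, *Ifnar1-203* (nonsense-mediated decay), had 31 to 65 counts in Tu-Gr1+CD11b+–primed, 40 to 91 in Spl-Gr1+CD11b+–primed and 0 to 16 in parental libraries. It rose in both comparisons with parental cells (log2 2.43, adjusted p = 0.0348, and 2.65, adjusted p = 0.0289). *Ifnar1-205* (retained intron) had 19 to 24, 13 to 16 and 0 to 6 counts, and rose in Tu-Gr1+CD11b+–primed cells (log2 2.76, SE 0.75, adjusted p = 0.0165), while its value in Spl-Gr1+CD11b+–primed cells was 2.14 (adjusted p = 0.0532).

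*Il10rb-201*, with 351 codons, held between 96.4% and 98.3% of reads on average and rose in Tu-Gr1+CD11b+–primed over parental cells (log2 0.25, adjusted p = 0.0312), with 0.04 in Spl-Gr1+CD11b+–primed cells (adjusted p = 0.759). The latter was 0.14 with the library sizes of the gene fit (adjusted p = 0.231), and *Il10rb* counted from protein-coding transcripts alone, of which this form is the only one, stood at 0.18 (adjusted p = 0.0514). *Ifngr2-201*, with 332 codons, held 89.0% to 89.5% of the reads on average and in Spl-Gr1+CD11b+–primed cells fell by 0.20 (log2, SE 0.05, adjusted p = 0.00915), a call that rests on the scaling. With the library sizes of the gene fit it was at -0.10 (adjusted p = 0.122), and *Ifngr2* counted from protein-coding transcripts alone, again this one form, was at -0.061 (adjusted p = 0.347). A short form of *Ifngr2*, *Ifngr2-202* (nonsense-mediated decay), held 10.7% ± 1.05, 10.4% ± 0.557 and 11.0% ± 0.862 in Tu-Gr1+CD11b+–primed, Spl-Gr1+CD11b+–primed and parental libraries, so its share differed by less than the spread between libraries. *Ifngr1-201*, with 477 codons, held 93.9% ± 6.46, 94.2% ± 4.47 and 94.2% ± 3.92 of the reads of *Ifngr1* and passed no test. *Ifngr1-203* held most of the rest, at 4.64% ± 5.79, 5.08% ± 4.39 and 5.24% ± 4.42.

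*Ifnar2*, *Il10rb*, *Ifnar1* and *Ifngr2* lie side by side on the plus strand of chromosome 16, in a block of 192.8 kb. Within 250 kb of this block 32 genes are annotated and 11 were tested, 7 of them neighbours of the receptor genes. *Gart*, a purine synthesis enzyme, fell by 0.78 on the log2 scale in Tu-Gr1+CD11b+–primed (adjusted p = 3.75e-07) and by 0.48 in Spl-Gr1+CD11b+–primed cells (adjusted p = 3.73e-05) relative to parental cells, and was the one neighbour that differed between the primed groups (-0.30, adjusted p = 0.00701). *Dnajc28* rose in both (0.95, adjusted p = 0.00322, and 0.81, adjusted p = 0.0112), at a highest count of 86. *Tmem50b*, next to *Ifngr2*, rose in Tu-Gr1+CD11b+–primed cells (0.22, adjusted p = 0.0375), and *Donson* in Spl-Gr1+CD11b+–primed cells (0.15, adjusted p = 0.0391). *Son*, *Cryzl1* and *Itsn1* passed no test. Calls in opposite directions thus stood next to each other in this stretch. *Gm21970*, annotated as a gene that overlaps both *Ifnar2* and *Il10rb*, had at most 25 counts in a library and was not tested, and reads it shares with these genes could be split between them.

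**Figure D5:**
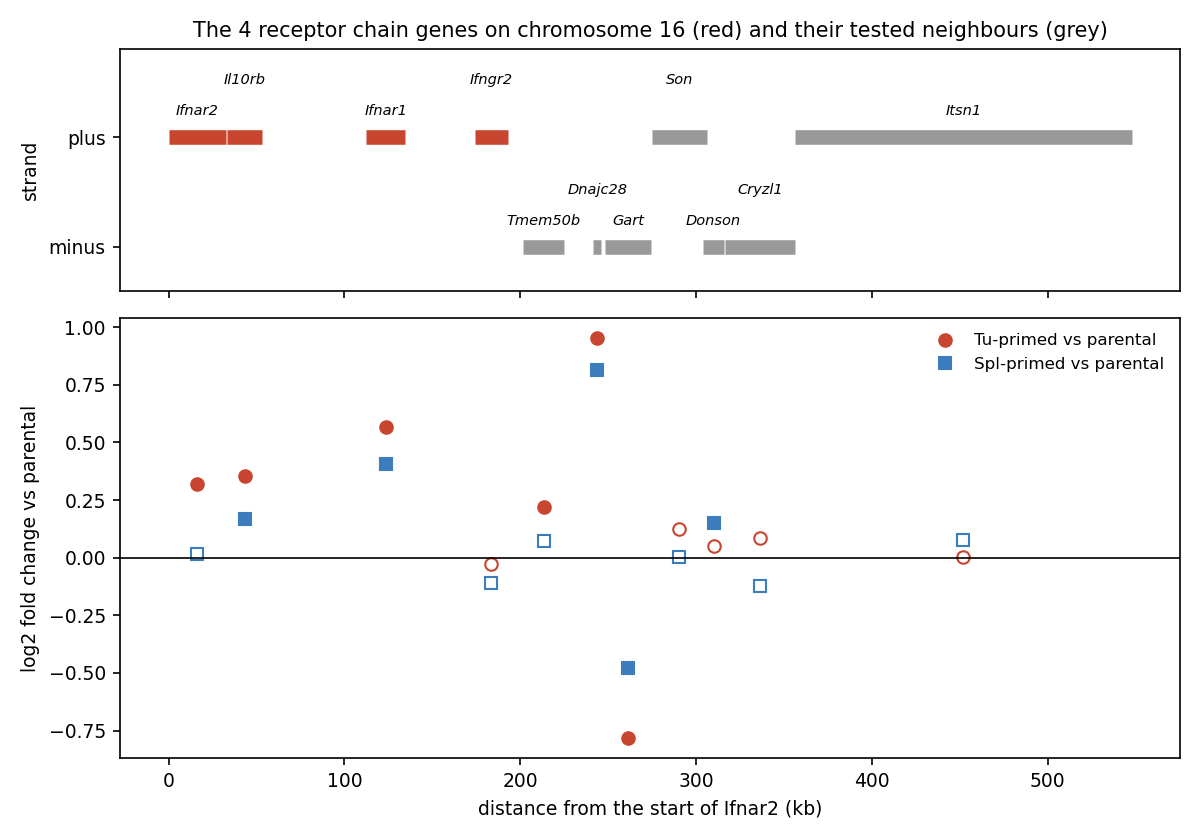
Top, the 4 receptor chain genes (red) and 7 tested neighbours (grey) on each strand of chromosome 16, drawn to scale by distance in kb from the start of Ifnar2; bottom, their log2 fold change against parental cells (linear axis), filled where edgeR's adjusted p was under 0.05. Ifnar2, Il10rb and Ifnar1 lie above 0 in Tu-primed cells (0.32, 0.35 and 0.57), Ifngr2 lies near 0, and Gart lies at -0.78.

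The 250 bases before the RefSeq transcription start (GRCm38.p6) were read for 5 of the 6 chains; *Il10rb* had no entry. Exact matches on both strands were sought for the core of the interferon-stimulated response element (GAAANNGAA), to which IRF9 and its STAT partners bind, for the IFN-γ–activated site (TTCNNNGAA), which STAT dimers bind, and for the GC box (GGGCGG) of SP1. None of the 5 held the first motif, which 7.16% of 27025 promoter windows of this length held. *Ifnar2* held 1 match of the second, as did 7.18% of all windows, and the GC box was found in the other 4 (*Ifngr2* 4 times, *Ifnar1* and *Ifngr1* 2 times each, *Ifnlr1* once), against 32.9% of all windows. The windows of both type I chains, whose RNA differed in pattern, and of *Ifngr2*, the most abundant chain, are shown in the direction of transcription, with matches in capitals: the GC boxes in *Ifnar1* and *Ifngr2*, some of them overlapping, and the IFN-γ–activated site motif in *Ifnar2*. A match describes these letters and is no evidence of binding.
Ifnar1, chr16:91484965-91485214, plus strand: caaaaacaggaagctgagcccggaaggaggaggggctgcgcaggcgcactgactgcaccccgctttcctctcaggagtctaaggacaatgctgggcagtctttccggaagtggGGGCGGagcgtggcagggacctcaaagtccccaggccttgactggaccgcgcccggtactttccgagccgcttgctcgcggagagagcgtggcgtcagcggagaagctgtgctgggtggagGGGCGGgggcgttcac
Ifnar2, chr16:91372533-91372782, plus strand: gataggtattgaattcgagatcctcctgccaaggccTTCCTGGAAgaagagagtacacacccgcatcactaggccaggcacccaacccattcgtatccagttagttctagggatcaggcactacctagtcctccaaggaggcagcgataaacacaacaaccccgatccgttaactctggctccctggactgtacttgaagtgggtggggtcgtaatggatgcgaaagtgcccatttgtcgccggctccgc
Ifngr2, chr16:91546809-91547058, plus strand: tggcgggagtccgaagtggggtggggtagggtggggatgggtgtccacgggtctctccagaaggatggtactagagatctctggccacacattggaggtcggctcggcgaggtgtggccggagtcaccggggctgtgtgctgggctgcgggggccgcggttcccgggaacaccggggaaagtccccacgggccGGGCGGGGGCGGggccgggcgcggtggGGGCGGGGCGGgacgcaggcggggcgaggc

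Other genes of the pathway were taken from lists. The ligands were close to undetected in the tumor cells themselves: all 21 interferon genes listed, 18 of them at 0 in every Tu-Gr1+CD11b+–primed library, 19 in every Spl-Gr1+CD11b+–primed and 21 in every parental library, had at most 3 counts in any library, and their summed level reached at most 0.0777 CPM. A count of 0 allows up to 0.122 CPM in the shallowest library. None was tested.

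Of 5 genes for kinases and transcription factors that act directly below the receptors, 2 were higher in Tu-Gr1+CD11b+–primed than in Spl-Gr1+CD11b+–primed cells, *Irf9* (log2 2.70, adjusted p = 4.70e-06) and *Stat2* (1.93, adjusted p = 3.91e-05). The median of the 5 was 0.28. Of all tested genes 4.66% were called higher and 2.97% lower in this comparison, 31.2% and 28.0% in Tu-Gr1+CD11b+–primed against parental cells and 25.7% and 22.5% in Spl-Gr1+CD11b+–primed against parental cells, with medians of -0.01, 0.02 and 0.02, and the counts of each list are given beside these shares. Against parental cells, 4 rose and *Jak1* fell in Tu-Gr1+CD11b+–primed cells (*Irf9* 3.50, *Stat2* 2.60, *Tyk2* 0.42, *Jak2* 0.27, *Jak1* -0.20, median 0.42 against 0.02 for all genes). In Spl-Gr1+CD11b+–primed cells 3 rose, *Irf9* (0.80), *Tyk2* (0.74) and *Stat2* (0.67), and *Jak1* fell by 0.22 (median 0.67 against 0.02). *Tyk2*, whose product binds IFNAR1, was thus higher in both primed groups, and *Jak1*, whose product binds IFNAR2, IFNGR1 and IFNLR1, was lower in both.

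Of 10 inhibitors of receptor signaling, 3 rose in Tu-Gr1+CD11b+–primed over Spl-Gr1+CD11b+–primed cells. They were *Usp18* (4.84), whose product binds IFNAR2 and displaces JAK1, *Isg15* (3.13) and *Socs3* (1.15). Over the Tu-Gr1+CD11b+–primed libraries *Usp18* ranged from 61 to 644 counts and *Isg15* from 170 to 841. The median of the 10 was 0.06 (all genes -0.01, with 4.66% called higher). Against parental cells 5 rose in Tu-Gr1+CD11b+–primed cells, among them *Cish* (1.11), and the phosphatases *Ptpn1* (-0.24) and *Ptpn11* (-0.19) fell (median 0.15 against 0.02, with 31.2% of all genes called higher and 28.0% lower). In Spl-Gr1+CD11b+–primed cells *Cish* rose (0.92), *Ptpn1* and *Ptpn11* fell (both by 0.22), and the median was 0.01 (all genes 0.02, with 25.7% called higher and 22.5% lower). *Socs1* passed no test (-0.28, -0.50 and -0.22 in the order above, adjusted p between 0.0858 and 0.531).

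Of 12 genes for the internalization and degradation of receptors, 1 rose in Tu-Gr1+CD11b+–primed over Spl-Gr1+CD11b+–primed cells (*Rnf213*, 0.97, adjusted p = 0.0141), against 4.66% of all genes. Against parental cells 2 rose and 7 fell in Tu-Gr1+CD11b+–primed cells (31.2% and 28.0% of all genes), with a median of -0.24 against 0.02. After spleen-derived cells 0 rose and 7 fell, among them the clathrin and AP2 genes *Cltc* (-0.31), *Clta* (-0.30), *Ap2a1* (-0.40), *Ap2b1* (-0.45) and *Ap2m1* (-0.33), with a median of -0.30 against 0.02 and a background of 25.7% higher and 22.5% lower. The ubiquitin ligase subunit *Btrc*, which recognizes phosphorylated IFNAR1, was at -0.18 there (adjusted p = 0.106).

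Of 20 interferon-stimulated targets, 17 rose in Tu-Gr1+CD11b+–primed over Spl-Gr1+CD11b+–primed cells, with a median of 1.97 (all genes -0.01, with 4.66% called higher), and 20 rose over parental cells, with a median of 2.01 (all genes 0.02, with 31.2% called higher). After spleen-derived cells 1 rose over parental cells, *Irf1* (0.56, adjusted p = 2.04e-05), a share below the 25.7% of all genes, and the median was 0.07. The antiviral genes *Oas1a* (4.10, adjusted p = 2.45e-05), *Irf7* (4.33, adjusted p = 2.42e-05) and *Bst2* (3.11, adjusted p = 0.000114) were among those that differed between the primed groups, whereas *Cxcl10* (0.88, adjusted p = 0.0568), *Isg20* (0.38, adjusted p = 0.0514) and *Ifit2* (0.21, adjusted p = 0.170) did not pass. The Tu-Gr1+CD11b+–primed libraries were spread in these genes. The summed level of the 20 was 663 to 1299 CPM there, 493 to 542 in Spl-Gr1+CD11b+–primed and 471 to 530 in parental libraries. *Oas1a* was at 32.9 ± 17.4 and *Irf7* at 40.2 ± 22.2 CPM in Tu-Gr1+CD11b+–primed libraries (SD, n = 4). In parental libraries *Mx1*, *Mx2* and *Oas2* had at most 4, 2 and 1 counts. The list was written with earlier results of these libraries known, so it is no independent evidence of its direction.

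Of 6 other chains of the class II cytokine receptor family, to which the interferon receptors belong, 2 were tested. In Tu-Gr1+CD11b+–primed cells both were called higher than in parental cells (31.2% of all genes) and in Spl-Gr1+CD11b+–primed cells 1 was (25.7%). *F3*, tissue factor, was at 7.90 ± 0.940, 9.44 ± 0.631 and 6.28 ± 0.419 CPM in Tu-Gr1+CD11b+–primed, Spl-Gr1+CD11b+–primed and parental libraries and rose over parental cells in both primed groups (0.33, adjusted p = 0.0113, and 0.58, adjusted p = 0.000313). *Il20rb* rose in Tu-Gr1+CD11b+–primed cells (0.79, adjusted p = 0.00913) at 1.65 ± 0.418 against 0.953 ± 0.228 CPM in parental cells (SD, n = 4). The remaining 4, partners of *Il10rb* in other receptors among them, had at most 4 counts in any library.

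The genes whose log2 CPM over the 12 libraries was most like that of a chain are given as a description, since the 12 points fall into 3 groups and share their libraries. For *Ifnar1* they were *Cep70* (Pearson r = 0.990), *App* (0.989) and *Ddhd2* (0.988), all of them with the order Tu-Gr1+CD11b+–primed, Spl-Gr1+CD11b+–primed, parental. For *Ifnar2* they were *Stfa3* (0.965), *Glrx* (0.952) and *Tceal9* (0.946). *Glrx* was at 41.6 ± 3.27, 29.3 ± 0.989 and 29.5 ± 0.498 CPM in Tu-Gr1+CD11b+–primed, Spl-Gr1+CD11b+–primed and parental cells (SD, n = 4), and so had, like *Ifnar2*, its high values in the first group alone. For *Il10rb* they were *Cmtm3* (0.946), *Phf10* (0.945) and *Zfp658* (0.942), for *Ifngr1* *Ippk* (0.947), *Gprc5a* (0.938) and *Ccn1* (0.921), and for *Ifngr2* *Arl1* (0.873), *Cd24a* (0.863) and *Lpcat3* (0.860). Among the chains themselves the highest correlation was that of *Ifnar2* with *Il10rb*, its neighbour (r = 0.810 over 12 libraries), followed by *Ifnar1* with *Il10rb* (0.720), and the lowest that of *Ifngr1* with *Ifngr2* (-0.699).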

How the data were processed

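The deposited table of each of the 12 libraries holds an estimated count of reads for every Ensembl transcript, made by the authors' transcript quantification and not normalized. It also holds TPM values, in which the authors' quantification took account of length and sequencing depth, and an effective length. The submitters' processing notes name FastQC, Trimmomatic 0.39, Salmon 1.4.0 and the builds GRCm38 and mm10, and the annotation release is not given in the sources used here. A deposited table of normalized values per gene was not used. Libraries were prepared with a stranded kit, per the labels.

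Gene counts are sums of these estimates by GENCODE M21 (GRCm38; 116021 of 117081 transcripts matched; the others held 0.326% to 0.419% of reads), rounded. Because such estimates split reads among similar transcripts, shares of transcripts are less certain than gene totals. With filterByExpr and TMM normalization, 12555 genes were fitted in R 4.3.3 with edgeR 4.0.16 (quasi-likelihood test, 12 libraries, no replicate term) and adjusted by Benjamini-Hochberg over all genes of a comparison, and called under 0.05. The standard error was taken as log2 fold change over the root of F, and 95% intervals are 1.96 standard errors on each side. CPM values use TMM-scaled library sizes, and log2 CPM a prior count of 2. Transcripts were tested in the same way. TPM ratios were compared by an exact permutation test. The spread of 4 libraries includes counting error, and the upper limit for a count of 0 is 3 counts. Alternatives were DESeq2 1.42.0, RLE scaling, unfiltered genes, a minimum of 10 counts per library, a fit of the 8 libraries of a comparison, a replicate block, protein-coding transcripts only, offsets for transcript length, thinning to the depth of the smallest library, and leaving out each of the 12 libraries. The tests were tried on simulated data. Replicates of a group differed by more than sampling noise, with a chi-square per degree of freedom of 3.46 to 62.2, the highest values being those of Spl-Gr1+CD11b+–primed replicate 3 and parental replicate 4. Transcripts were also fitted with the library sizes of the gene fit, chosen after seeing the data. Python 3.11.15, pandas 2.3.3, matplotlib 3.10.9 and numpy 2.4.6 served for tables and plots.

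Named were the 6 chains, genes of the lists, the 3 genes most correlated with each chain, tested neighbours within 250 kb, and transcripts with at least 5% of a gene's reads in a group mean. *Ifnar1-203* and *Ifnar1-205* fall outside this rule and were chosen once their values were seen. The members and lists were chosen with earlier results of these data known. One gene of the list of kinases and transcription factors is not reported here.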

Additional observations from a re-analysis of the deposited data

Results flagged for a closer look

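The response of *Ifnar2* differed between the 2 kinds of priming. Its change over parental cells was larger after coculture with tumor-derived than with spleen-derived Gr1+ cells by 0.31 on the log2 scale (edgeR, adjusted p = 0.00585), and its Tu-Gr1+CD11b+–primed libraries were above the other 8 libraries. As both changes share the parental libraries, this is the same value as the direct comparison of the primed groups. It kept its direction and stayed past the threshold in the 21 other settings, with values between 0.27 and 0.36 and adjusted p-values between 0.000184 and 0.0448. The other 4 tested chains passed no test of this difference in the main analysis.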

How the results depend on the processing

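Over 21 other settings, the calls of *Ifnar1* and *Il10rb* in Tu-Gr1+CD11b+–primed against parental cells, of *Ifnar1* in Spl-Gr1+CD11b+–primed against parental cells and of *Ifnar2* between the primed groups kept their direction and stayed past the threshold. The cause of the changes that follow was not tested. Between the primed groups, *Ifnar1* passed with only the 8 libraries compared (0.18), and *Il10rb* lay between 0.16 and 0.23 when single libraries were left out, passing without Spl-Gr1+CD11b+–primed replicate 3. The number of genes called there, 958, was 497 with length offsets and 564, 550 and 525 without Tu-Gr1+CD11b+–primed replicates 1, 2 and 3, with 525 and 1193 as the lowest and highest counts when a library was left out. In Tu-Gr1+CD11b+–primed against parental cells, *Ifnar2* no longer passed with length offsets (0.21), and *Ifngr2* (-0.028) changed sign with protein-coding transcripts only (0.021) and was -0.058 with length offsets. With length offsets the differences between the primed groups were 0.26 for *Ifnar1* and 0.10 for *Il10rb*, and neither passed. *Ifngr1*, not called in these comparisons, was 0.065 against parental cells without parental replicate 4, and -0.051 between the primed groups without Spl-Gr1+CD11b+–primed replicate 3 and -0.056 with length offsets.

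In Spl-Gr1+CD11b+–primed against parental cells, *Ifnar2* changed sign with DESeq2 (-0.010), RLE (-0.011), no filter (-0.0094) and length offsets (-0.15), and lay between -0.023 and 0.047 when single libraries were left out (-0.0052 without parental replicate 1 and -0.023 without Spl-Gr1+CD11b+–primed replicate 3). There *Ifngr1* lay between 0.16 and 0.23 when libraries were left out. *Ifngr2* passed with DESeq2 and with RLE (both -0.14), lay between -0.14 and -0.086 when libraries were left out, and was -0.061 with protein-coding transcripts only. *Il10rb* did not pass with DESeq2 (0.14), RLE (0.14), no filter (0.14), the 8 libraries alone (0.16) or protein-coding transcripts only (0.18), and lay between 0.12 and 0.19 when libraries were left out, failing without Spl-Gr1+CD11b+–primed replicates 1, 3 and 4 and parental replicates 1 and 2.

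Replicate numbers showed no common pairing over the 3 groups. Deviations of same-numbered libraries correlated at -0.164 to 0.148, and over 0.1 in 2 of 12 pairs, against -0.224 to 0.168 for libraries of different numbers. The same-numbered Tu-Gr1+CD11b+–primed and parental libraries were at 0.148, 0.084, 0.088 and 0.134, and a pairing of these groups alone was not tested. With the replicate block every call of a chain stayed on its side of the threshold (*Ifnar2* between the primed groups 0.30, adjusted p = 0.0136), and the count of genes called between the primed groups was 744. With a library left out, a test added after seeing the data, no TPM ratio passed (adjusted exact permutation p between 0.0857 and 0.943); *Ifnar1* over *Ifnar2* between the primed groups changed sign without Tu-Gr1+CD11b+–primed replicate 2 (0.052, lowest -0.18). Depth limits *Ifnlr1* and the interferon ligands.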
